A study of Mus musculus with 14 samples.

Results

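Interferon-stimulated genes were followed in bulk RNA-Seq of the peeled epithelium and the stroma of the mouse esophagus. The 43 members were the genes whose symbol in the count files equalled a name on a list of genes that interferons are known to induce, and all 43 were found among the 55291 genes of the files. The samples came from wild type C57BL/6 mice, without a transgene, called young at 4 months or less and aged at 18 months or more. Aged epithelium came from 5 mice (O1, O2, O3, OF5 and OM8) and young epithelium from 4 mice (Y1, Y3, YF5 and YM4). Stromal samples were from O1, O2, O3, Y1 and Y3, so each shared its mouse with an epithelial one. Stroma is the name the labels give to the layer left after peeling, and it was rich in skeletal muscle genes.

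Interferons are secreted proteins that warn cells of infection. Type I and type III interferons act through receptors coupled to the kinases Jak1 and Tyk2, and the signal reaches a complex of Irf9 and STAT proteins that binds the interferon-stimulated response element (ISRE) in the promoters of target genes. Interferon gamma has a receptor of its own and acts on target genes through the gamma-activated site (GAS). The induced genes encode sensors of viral RNA, enzymes that degrade or block viral RNA, GTPases that attack intracellular microbes, and the proteasome subunits and peptide transporter that load MHC class I molecules. Squamous epithelia such as that of the esophagus face the outside and can respond to each type of interferon.

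The response element was looked for in the members' promoters, since it is the sequence through which most of them are known to be induced. RefSeq promoters (GRCm38.p6) were at hand for 32 of the 43 members, and the 250 bases before the start of transcription were searched. The motif GAAANNGAAA, on either strand, was found in 13 of the 32 members (40.6%) and in 3.46% of all 27025 genes with a promoter in that collection. The motif TTCNNNGAA, a form of the gamma-activated site that reads alike on both strands, was found in 8 of the 32 (25.0%) and in 8.13% of all genes; the 2 motifs were counted separately, and Oas1a, Bst2, Gbp7 and Igtp held both. Windows of 30 bases around a match are shown for 9 of the 13: 7 members that were lower in epithelium and, for contrast, Isg15 and Ifit1, whose difference did not pass the test. Bst2, Gbp2, Oas1a and Stat2 held the motif too. Each is written 5′ to 3′ on the strand of its gene, with the motif in capitals; where the motif lay on the opposite strand the capitals read as its complement, TTTCNNTTTC, and where matches overlapped the capitals cover both.
Ifit3, chr19:34583397-34583426, plus strand: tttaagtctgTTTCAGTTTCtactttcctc
Ifit3b, chr19:34607793-34607822, plus strand: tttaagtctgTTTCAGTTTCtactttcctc
Ifit1, chr19:34640794-34640823, plus strand: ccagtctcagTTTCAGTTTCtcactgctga
Rsad2, chr12:26456553-26456582, minus strand: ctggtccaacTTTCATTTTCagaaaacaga
Oas3, chr5:120777715-120777744, minus strand: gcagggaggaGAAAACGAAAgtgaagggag
Gbp3, chr3:142559995-142560024, plus strand: acagTTTCAGTTTCTATTTCccagatccct
Gbp7, chr3:142530273-142530302, plus strand: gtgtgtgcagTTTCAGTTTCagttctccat
Igtp, chr11:58199512-58199541, plus strand: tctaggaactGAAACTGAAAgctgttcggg
Isg15, chr4:156200865-156200894, minus strand: aaagGAAACCGAAACAGAAAatagctctgg
The windows of Ifit3 and its neighbour Ifit3b were identical base for base. A match in letters is a description of the window and does not show that a factor binds there.

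Few of the counts fell on members in any sample. In epithelium Trim25 held more of them than any other member, with 1681 of 4585 in O1. Total counts ran from 16477424 to 21867101 in the 5 epithelial samples of mice with numbered codes, and from 3037 to 4627 of those counts fell on members. In the 4 epithelial samples with lettered codes (OF5, OM8, YF5 and YM4), totals were 8217516 to 9399448, of which 70.8% to 80.9% lay in ribosomal RNA and repeat genes, and only 339 to 582 counts fell on members. In these 4 samples 5 to 12 of the 43 members had no count, and 3 counts correspond to 0.707 to 1.25 normalized counts, so that levels under about that value cannot be told from none there. Stromal totals were 13257833 to 15644580, with 2458 to 7141 counts on members, and 3 counts correspond to 0.115 to 0.175 normalized counts. Normalized counts are CPM on the library size adjusted by the trimmed mean of M-values (TMM) over all 14 samples. The labels of the layers were borne out by keratinocyte markers, all 8 of which passed the test as higher in epithelium, and skeletal muscle markers, all 6 of which passed as lower.

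Interferon-stimulated genes were for the most part lower in epithelium than in stroma. Of the 43 members, 41 passed the filter on low counts, and 25 of them were lower in epithelium at an adjusted p under 0.05 (edgeR's quasi-likelihood test, Benjamini-Hochberg over 16791 genes), against 30.1% of all genes tested. Trim25, a ubiquitin ligase that activates the RNA sensor RIG-I, was the only member higher in epithelium in this fit, against 26.1% of all genes tested. The median log2 fold change of the 41 members was -1.47, beside -0.05 over all genes tested. Because a member could pass the filter through its stromal samples alone, the fit without a filter was also read over all 43: 22 were lower and 2 higher (Trim25 and Oasl1), against 17.0% and 11.3% of 49574 genes. When each of the 5 mice that gave both layers was its own block, 18 members were lower and Trim25 was higher, against 24.0% and 27.4% of 16713 genes. Bulk samples cannot tell fewer cells of a kind from less RNA per cell.

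**Figure D1:**
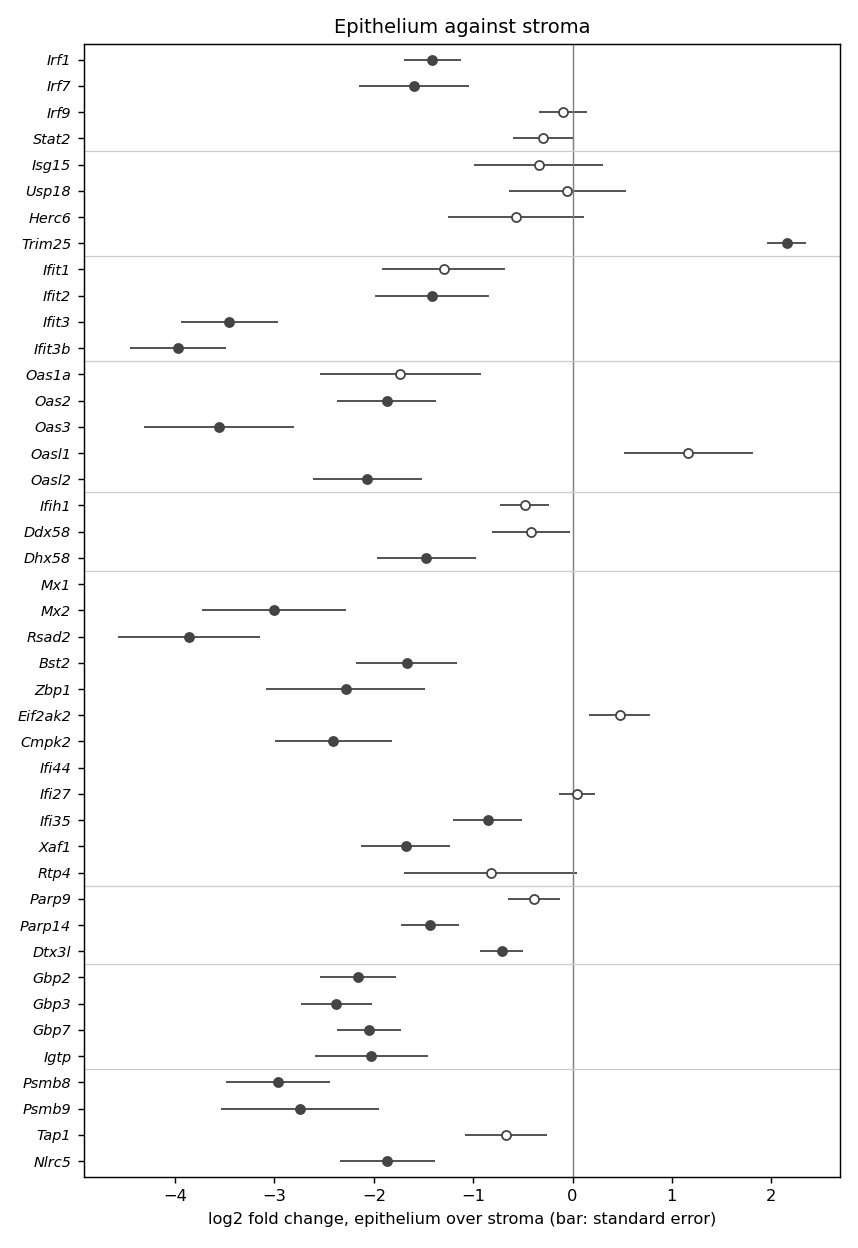
Log2 fold change of epithelium over stroma for each member (x axis), with members grouped by role from top to bottom and bars of 1 standard error; filled points passed the adjusted p threshold and open points did not, and Mx1 and Ifi44 were not tested. The filled points lie left of 0 for 25 members and right of 0 for Trim25 alone, at 2.15.

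Among the IFIT proteins, which bind viral RNA lacking host caps, Ifit3 (GRCm38 chromosome 19, 34583531 to 34588731) was among the most strongly layered members. Its normalized counts in the 9 epithelial samples ran from 0 in YF5 over a median of 0.727 to 1.73 in YM4. In stroma they were 4.26 in O1, 6.61 in O2, 18.2 in O3, 4.80 in Y1 and 4.41 in Y3. Every stromal sample was above every epithelial sample, with O3 far above the rest, and the log2 fold change was -3.45 ± 0.49 (SE, adjusted p = 4.62e-06, edgeR).

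Ifit3b (chromosome 19, 34607970 to 34613401), the close copy of Ifit3, showed the largest decrease of any member. It ran in epithelium from 0 in YM4 over a median of 0.294 to 1.18 in OM8, and in stroma it was 9.16 in O1, 3.82 in O2, 6.31 in O3, 6.97 in Y1 and 4.06 in Y3. The groups did not overlap, and the log2 fold change was -3.97 ± 0.49 (adjusted p = 7.06e-07, edgeR). Stretches of 50 bases shared with another gene made up 51.2% of Ifit3 and 45.0% of Ifit3b, so how the counting assigned reads between these genes is uncertain. The ratio of their stromal values was not the same in each mouse, with Ifit3b the higher in O1 and Y1 and Ifit3 the higher in O2, O3 and Y3. The members whose groups did not overlap were 8 of 41 on the lower side (Irf1, Ifit3, Ifit3b, Bst2, Cmpk2, Parp14, Gbp3 and Gbp7), against 16.9% of all genes tested, and 1 on the higher side (Trim25), against 14.4%.

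Ifit2 was lower by -1.42 ± 0.57 (adjusted p = 0.0411), but not with mouse as a block (adjusted p = 0.376, edgeR). Ifit1, at -1.30 ± 0.62, missed the threshold (adjusted p = 0.0802, edgeR). It passed without OF5 epithelium (adjusted p = 0.0325) and in only the 5 mice with both layers (0.0439, edgeR). DESeq2 called it on all 14 samples (adjusted p = 0.0326), while with mouse as a block it did not pass (0.102, edgeR). The call of Ifit2 was lost in 9 of the 14 fits that left out 1 sample each: O1, O2 or O3 epithelium, O3 stroma, Y1, YF5 or YM4 epithelium, and Y1 or Y3 stroma, with adjusted p from 0.0508 to 0.239.

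Of the 5 members of the OAS family, enzymes and relatives that sense double-stranded RNA and switch on the ribonuclease RNase L, 3 were lower in epithelium (Oas2, Oas3 and Oasl2). Oas3 (chromosome 5, 120753098 to 120777661) had no count in O3 or YM4 epithelium, a median of 0.236 and a highest value of 0.833, in YF5. In stroma its normalized counts were 5.31 in O1, 0.616 in O2, 6.01 in O3, 1.19 in Y1 and 1.06 in Y3. O1 and O3 stood above the other stromal samples. O2 stroma, on 15 counts, lay below the YF5 value, which rested on 2 counts, under the floor of 3 counts. The log2 fold change was -3.56 ± 0.75 (adjusted p = 0.000454, edgeR). Without O1 and O3 stroma it was -1.95 (adjusted p = 0.0347).

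Oasl2 (chromosome 5, 114896936 to 114912234), a member with ubiquitin-like domains, had the highest mean of the family over the 14 samples, though in epithelium Oasl1 was higher (2.18 ± 0.99 against 1.83 ± 0.77 normalized counts, SD, n = 9). It ran in epithelium from 0.885 in Y1 over a median of 1.53 to 3.45 in OF5, and was 0.175 in O1 stroma, 2.88 in O2, 10.52 in O3, 13.9 in Y1 and 8.51 in Y3. O1 stroma, with 3 counts, lay below all epithelial samples. The log2 fold change of -2.07 ± 0.55 passed without a block (adjusted p = 0.00354) and not with mouse as a block (adjusted p = 0.151, edgeR). Oasl1, its paralog, pointed the other way at 1.17 ± 0.65 and did not pass (adjusted p = 0.135), and Oas1a, which shares 57.6% of its 50-base stretches with Oas1g, did not pass either (-1.73 ± 0.81, adjusted p = 0.0739). Without O1 stroma both passed, Oasl1 as higher (adjusted p = 0.0260) and Oas1a as lower (adjusted p = 0.0185, edgeR).

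The 12 other antiviral effectors and induced genes held 7 members that were lower in epithelium, 3 that did not pass (Eif2ak2, Ifi27 and Rtp4) and 2 that were not tested. Rsad2 (chromosome 12, 26442746 to 26456452), which encodes viperin, an enzyme that makes a chain terminator of viral RNA synthesis, had no count in 4 of the 9 epithelial samples and at most 0.494 normalized counts, in O1. In stroma it was 0.408 in O1, 3.41 in O2, 7.11 in O3, 1.81 in Y1 and 2.36 in Y3. Only O1 stroma reached down into the epithelial range, and the log2 fold change was -3.86 ± 0.71 (adjusted p = 0.000108, edgeR). Without O3 stroma it was -3.26.

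Mx2 (chromosome 16, 97535308 to 97560900), a dynamin-like GTPase gene that the annotation calls a polymorphic pseudogene, was likewise near its floor in epithelium. It had no count in OM8, Y1, YF5 and YM4 and at most 0.458 normalized counts, in Y3, and in stroma it was 1.58 in O1, 0.329 in O2, 2.75 in O3, 1.44 in Y1 and 1.77 in Y3. All stromal samples but O2 lay above the epithelial range, and the log2 fold change was -3.005 ± 0.73 (adjusted p = 0.00148, edgeR). Mx1 and Ifi44 did not pass the filter, with at most 0.523 and 0.707 normalized counts in epithelium and at most 2.22 and 3.56 in stroma. Ifi44 was called lower in epithelium without a filter (adjusted p = 0.0248, edgeR) and by DESeq2 (adjusted p = 0.00972). Mx1 was called in neither of these fits, but was called lower without O3 stroma (adjusted p = 0.0335, edgeR). Cmpk2 (-2.41), Zbp1 (-2.28), Xaf1 (-1.68), Bst2 (-1.67) and Ifi35 (-0.85) were the other members of this group called lower. Cmpk2 supplies nucleotides in the mitochondrion, Zbp1 senses left-handed nucleic acid helices and Bst2, or tetherin, holds budding virus at the cell surface. Bst2 was not called in the fit without a filter (adjusted p = 0.0533, edgeR). Ifi35, with an adjusted p of 0.0424 by edgeR, was not called with the mouse block (0.256), nor in 7 of the fits without 1 sample: O1, O2, OF5, Y3 or YM4 epithelium, or O2 or Y3 stroma, with adjusted p from 0.0530 to 0.296.

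Ifi27 (chromosome 12, 103434211 to 103440239), a mitochondrial protein of interferon-treated cells, was the most abundant member per length of exon in both layers. Its normalized counts ran in epithelium from 9.65 in OF5 over a median of 14 to 17.5 in Y1, and were 12.4 in O1 stroma, 17.2 in O2, 10.2 in O3, 12.4 in Y1 and 16.1 in Y3. The layers overlapped throughout, and the log2 fold change was 0.04 ± 0.18 (adjusted p = 0.860, edgeR). On the scale of normalized counts per kilobase of exon, Ifi27 stood at 9.52 ± 1.83 (SD, n = 9) in epithelium and 9.31 ± 1.99 (SD, n = 5) in stroma. Trim25 came next in epithelium at 8.20 ± 1.82, within 1 SD of Ifi27, and both stood well apart from Ifi35 at 1.83 ± 0.69. In stroma Ifit3 was second at 4.38 ± 3.41, Gbp2 the third at 3.46 ± 1.31, and Trim25 the eighth at 1.85 ± 0.40; the places from Ifit3 down to Trim25 did not differ beyond their spread.

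Of the 4 members concerned with the ubiquitin-like protein ISG15 and with ubiquitin ligation, Trim25 (chromosome 11, 88999376 to 89020293) was higher in epithelium and none was lower. Its normalized counts in epithelium ran from 29.97 in OF5 over a median of 48.9 to 60.8 in YF5, and in stroma they were 8.98 in O1, 8.87 in O2, 14.5 in O3, 10.1 in Y1 and 10.7 in Y3. The layers did not overlap, with a log2 fold change of 2.15 ± 0.20 (adjusted p = 1.09e-08, edgeR) that stayed between 1.84 and 2.35 under all 23 alternatives. The promoter of Trim25 held neither of the motifs searched in the 250 bases. This was not particular to it: those of Irf7, Cmpk2 and Psmb9, which were lower in epithelium, held neither as well. Isg15 itself, which is conjugated to proteins during the interferon response, was scarce in both layers, at 0.597 ± 0.483 (SD, n = 9) normalized counts in epithelium and 0.744 ± 0.539 (SD, n = 5) in stroma. Usp18, the protease that removes ISG15 and dampens the type I receptor, stood at 1.73 ± 0.34 and 1.75 ± 1.49, and Herc6, the mouse ISG15 ligase, at 1.72 ± 1.04 and 2.47 ± 2.58. None of these 3 passed the test between the layers (adjusted p = 0.676, 0.946 and 0.496, edgeR). Their stromal values were scattered: Usp18 had 1 count in O1 stroma and 5 in O2 against 75, 58 and 67 in O3, Y1 and Y3.

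Of the 4 signalling factors, 2 passed the test. Irf1 and Irf7, transcription factors that are themselves induced, were lower in epithelium (-1.41 ± 0.28, adjusted p = 0.000284, and -1.60 ± 0.55, adjusted p = 0.0186, edgeR). Irf9 (chromosome 14, 55603571 to 55610030), the DNA-binding subunit of the complex that reads the response element, ran in epithelium from 5.14 in O3 over a median of 6.85 to 9.19 in OM8. In stroma it was 4.38 in O1, 11.1 in O2, 6.66 in O3, 9.65 in Y1 and 5.83 in Y3, on both sides of the epithelial range. Its log2 fold change was -0.10 ± 0.24 (adjusted p = 0.750), and that of Stat2 was -0.29 ± 0.31 (adjusted p = 0.431, edgeR). Without O1 and O3 stroma the call of Irf7 was lost (adjusted p = 0.0816) and Stat2 passed as lower (-0.64 ± 0.25, adjusted p = 0.0329, edgeR). The cytoplasmic RNA sensors of the RIG-I family gave a like picture: Ifih1 (chromosome 2, 62595798 to 62646255), which encodes MDA5, ran from 3.30 in OM8 over a median of 4.76 to 6.58 in YM4, and was 7.93 in O1 stroma, 9.74 in O2, 4.02 in O3, 5.37 in Y1 and 6.46 in Y3. The layers overlapped, and neither Ifih1 (-0.48 ± 0.24, adjusted p = 0.0982) nor Ddx58, which encodes RIG-I (-0.42 ± 0.39, adjusted p = 0.383), passed, although Ifih1 was called lower without O3 stroma (-0.63 ± 0.23, adjusted p = 0.0245, edgeR). Dhx58 passed as lower (-1.47 ± 0.50, adjusted p = 0.0165), though not with the mouse block (adjusted p = 0.134) or without O3 stroma (adjusted p = 0.0593, edgeR).

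The interferon-inducible GTPases moved together: all 4 members (Gbp2, Gbp3, Gbp7 and Igtp) were lower in epithelium, with log2 fold changes between -2.38 and -2.03, and all 4 remained called with mouse as a block. Gbp2 (chromosome 3, 142620602 to 142638008), a guanylate-binding protein, ran in epithelium from 0.417 in YF5 over a median of 1.52 to 6.20 in OF5, and was 12.2 in O1 stroma, 4.23 in O2, 10.1 in O3, 6.40 in Y1 and 10.6 in Y3. OF5 alone of the epithelial samples rose above the lowest stromal sample, and the log2 fold change was -2.16 ± 0.38 (adjusted p = 6.79e-05, edgeR). Of the PARP9-DTX3L group, which modifies histones and viral proteins, Parp14 (-1.44 ± 0.29, adjusted p = 0.000283) and Dtx3l (-0.71 ± 0.22, adjusted p = 0.00946) were lower and Parp9 was not called (-0.39 ± 0.26, adjusted p = 0.214, edgeR). Dtx3l (chromosome 16, 35926511 to 35939151) ran from 3.77 in OM8 over a median of 6.13 to 7.63 in O2 epithelium, and was 10.97 in O1 stroma, 9.65 in O2, 12.3 in O3, 5.73 in Y1 and 10.95 in Y3. Y1 stroma alone fell within the epithelial range. It was not called with the mouse block (adjusted p = 0.0908) or without a filter (adjusted p = 0.146, edgeR). Dtx3l and Parp9 overlap on opposite strands over 8.0% of the exon bases of Dtx3l, and whether the counting used strand is not given in the sources used here.

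In MHC class I antigen processing, the immunoproteasome subunits Psmb8 (-2.97 ± 0.52, adjusted p = 6.41e-05) and Psmb9 (-2.74 ± 0.80, adjusted p = 0.00625) and the class I transactivator Nlrc5 (-1.86 ± 0.47, adjusted p = 0.00228, edgeR) were lower in epithelium. Tap1 (chromosome 17, 34187553 to 34197225), a subunit of the peptide transporter whose gene overlaps Psmb9 on the opposite strand, was steady in epithelium, from 2.90 in O3 over a median of 3.66 to 4.95 in OM8. In stroma it was 1.58 in O1, 1.48 in O2, 14.5 in O3, 4.39 in Y1 and 6.26 in Y3, below and above the epithelial range, and it did not pass (-0.67 ± 0.41, adjusted p = 0.173, edgeR). It was called lower without O1 stroma (adjusted p = 0.0444) and without O2 stroma (adjusted p = 0.0453, edgeR). Psmb9 was not called with the mouse block (adjusted p = 0.114) or without O3 stroma (adjusted p = 0.0875), and Zbp1 was not called without O3 stroma either (adjusted p = 0.0567, edgeR).

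**Figure D2:**
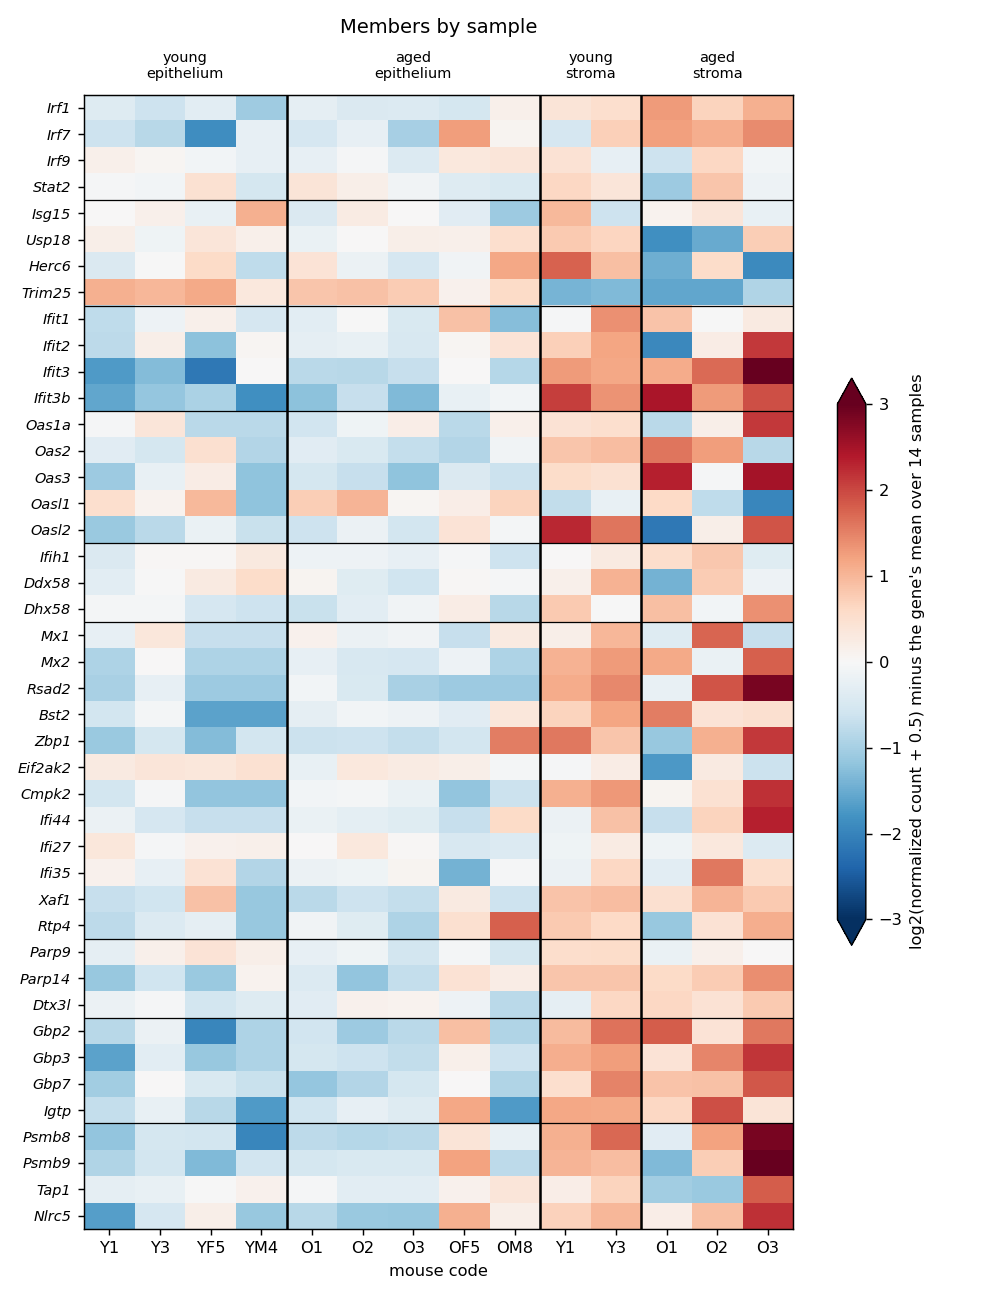
Each row is a member and each column a sample; the color gives log2(normalized count + 0.5) minus that gene's mean over the 14 samples, on a scale from -3 to 3, and black lines separate the roles and the groups. The stromal columns other than O1 are mostly red and the epithelial ones mostly blue. Trim25 goes the other way, and the means of Oasl1, Eif2ak2 and Ifi27 are also higher in epithelium. O1 is the lowest of the stromal columns for 22 of the 43 members. The O3 stroma column is the reddest in the antigen processing rows, with Psmb8 at 13.7 and Psmb9 at 9.64 normalized counts.

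The O1 and O3 stromal samples stood at the ends of the stromal range. Among the 5 stromal samples, 21 of the 43 members were highest in O3 and 22 were lowest in O1, against 26.2% and 27.4% of the 16791 genes tested. There were also 7 members lowest in O3, among them Oasl1 and Mx1 with no count and Herc6 with 1, and 6 highest in O1. In O3, 10 members were at least 2 times the next highest stromal sample: Ifit2, Ifit3, Oas1a, Rsad2, Cmpk2, Ifi44, Psmb8, Psmb9, Tap1 and Nlrc5, all 4 genes of antigen processing among them. The share of all genes at that ratio in O3 was not taken, so this count only describes the members. The same sample carried the most leukocyte RNA. The 4 pan-leukocyte markers summed to 130.4 normalized counts in O3 stroma and 13.1 to 33.2 in the other stromal samples, and the 8 markers of B and plasma cells to 2172 against 36.9 to 250.5. These samples were singled out after their values were seen, and the part of leukocytes in the members' levels was not tested. Without O1 and O3 stroma, 26 members were lower in epithelium and 2 were higher, against 31.3% and 25.3% of 18459 genes. These were not the same members: the calls of Irf7 (adjusted p = 0.0816), Dhx58 (0.170) and Dtx3l (0.0934) were lost, while Stat2 (0.0329), Herc6 (0.0109), Ddx58 (0.0158) and Mx1 (0.00884) passed as lower and Oasl1 (0.0129) as higher (edgeR).

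Markers of other cell types also differed between the layers. In the fit over 16791 genes, 30.1% of all genes were lower in epithelium and 26.1% were higher. Of the 6 endothelial markers 5 were lower in epithelium, with a summed level of 19.2 to 32.4 normalized counts in epithelium and 40.9 to 137 in stroma. Of the 4 pan-leukocyte markers 3 were lower (4.99 to 16.3 against 13.1 to 130.4), of the 6 macrophage and monocyte markers 5 (25.7 to 73.7 against 97.1 to 254), of the 8 B and plasma cell markers all 5 that were tested (0.425 to 17.6 against 36.9 to 2172), and of the 6 dendritic cell markers both that were tested (1.38 to 3.54 against 6.90 to 14.1). All 5 adipocyte markers were lower in epithelium as well (0 to 2.76 against 135 to 718). Fibroblast markers were present in both layers, at 280.5 to 632 in epithelium and 415 to 1031 in stroma, and 3 of the 6 were lower. Only 1 of the 8 T and NK cell markers was tested, and it did not pass. Defining markers such as Ptprc and Pecam1 were above 0 in every epithelial sample, and the part of these cells in the layer difference of the members was not tested.

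Genes around the members in the pathway were read in the same fit, in which 30.1% of all genes tested were lower and 26.1% higher. The 21 interferon genes gathered only 398 counts over all 14 samples, 102 of them on Ifnab, and none passed the filter between the layers. The receptor genes went both ways: Ifnar2 (-1.51 ± 0.40), Ifngr1 (-0.81 ± 0.23) and Ifngr2 (-0.91 ± 0.16) were lower in epithelium, whereas Ifnlr1 (1.95 ± 0.76) and Il10rb (1.05 ± 0.28), which together make the receptor of type III interferons, were higher. Ifnar1, at 10.3 normalized counts in epithelium and 10.7 in stroma, did not pass (-0.05 ± 0.18, adjusted p = 0.814, edgeR). Of the 10 kinases, STATs and inhibitors, the kinase Jak2 (-1.10 ± 0.16) and the feedback inhibitor Socs3 (-1.39 ± 0.24) were among those lower and Pias1 was higher. Of 12 tested sensors and adaptors upstream of interferon, Myd88, Irf5 and the DNA sensor Cgas (3.86 ± 0.42) were higher in epithelium and its partner Sting1 (-3.16 ± 0.60) was lower. A further 34 interferon-induced genes outside the members, 28 of them tested, held 20 that were lower, Gbp6 (-3.98 ± 0.58) and Ifi27l2a (-3.86 ± 0.43) the most, and 1 that was higher, Ly6e (0.75 ± 0.29). Of 14 genes of MHC class I and peptide loading 7 were lower, among them B2m (-2.07 ± 0.27) and H2-K1 (-1.08 ± 0.24), and Erap1 was higher.

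Age was compared within each layer. In epithelium, 5 aged against 4 young mice with numbered or lettered code as a covariate, 0 of the 34 members tested passed, against 0.0126% of 15859 genes (edgeR, adjusted p under 0.05). Trim25 alone had an unadjusted p under 0.05, and DESeq2 called 0 of 43 with 2 under 0.05 before adjustment. Which members were under 0.05 depended on the samples. Without Y3 they were Gbp3, Ifi27, Nlrc5 and Rtp4 and not Trim25, and again 0 passed (edgeR). The median log2 fold change of aged over young was 0.07 over the members tested and -0.003 over all genes tested, and 20 of the 34 were positive. Without Y3 the median of the members was 0.24. No member separated the age groups, against 0.668% of all genes higher and 0.643% lower without overlap. OF5 and OM8 were each the highest of the 9 epithelial samples for 11 of the 43 members, against 12.5% and 17.7% of the 16791 genes tested between the layers, and the lowest, leaving out ties, for 4 and 5 members. Both are shallow samples, in which 1 count equals 0.345 and 0.236 normalized counts. The pan-leukocyte markers summed to 16.2 and 16.3 normalized counts in these 2 samples and to 4.99 to 10.4 in the other epithelial samples, and their part in the members' levels was not tested.

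The 5 members with the smallest unadjusted p in aged epithelium were Trim25, Oasl2, Ifit3, Parp9 and Ifi27. Trim25 had normalized counts of 48.9, 50.2, 46.5, 29.97 and 41.01 in O1, O2, O3, OF5 and OM8, and of 57.9, 55.3, 60.8 and 34.3 in Y1, Y3, YF5 and YM4. The lettered mice OF5 and YM4 were the lowest of their groups, and the log2 fold change was -0.31 ± 0.14 (unadjusted p = 0.0449, adjusted p = 0.9996, edgeR). Without YF5 it was -0.17. Oasl2 was at 1.45, 2.12, 1.53, 3.45 and 2.36 in the aged mice in the same order and at 0.885, 1.21, 2.08 and 1.38 in the young, overlapping because YF5 lay among the aged values (0.69 ± 0.34, unadjusted p = 0.0563, adjusted p = 0.9996, edgeR). Ifit3 was at 0.756, 0.727, 0.870, 1.72 and 0.707 in the aged and 0.177, 0.393, 0 and 1.73 in the young. Among mice with numbered codes the aged values were all above the young ones, while the lettered mice held both the lowest and the highest, on at most 5 counts each (1.09 ± 0.61, unadjusted p = 0.0906, adjusted p = 0.9996, edgeR). The estimate for Ifit3 was 0.70 without Y1 and 1.64 without YM4.

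Parp9 (chromosome 16, 35938470 to 35972605), a mono-ADP-ribosyltransferase partner of Dtx3l, was at 3.23, 3.54, 2.53, 3.79 and 2.59 in the aged and 3.19, 4.42, 5.42 and 4.50 in the young. Only Y1 of the young mice lay within the aged range (-0.41 ± 0.25, unadjusted p = 0.114, adjusted p = 0.9996, edgeR). Ifi27 was at 13.8, 17.0, 14, 9.65 and 10.1 in the aged and 17.5, 13.3, 15.0 and 15.2 in the young. The log2 fold change was -0.24 ± 0.16 (unadjusted p = 0.153, adjusted p = 0.9996, edgeR), and it was -0.05 within the numbered mice and -0.58 within the lettered ones. Over the other 29 members tested, estimates ran from -0.67 for Isg15 to 0.96 for Psmb9. Ifit3b, Oas1a, Oas3, Mx1, Mx2, Rsad2, Zbp1, Ifi44 and Rtp4 did not pass the filter in epithelium; of these, Zbp1 and Rtp4 were highest in OM8, at 3.06 and 3.30 normalized counts.

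**Figure D3:**
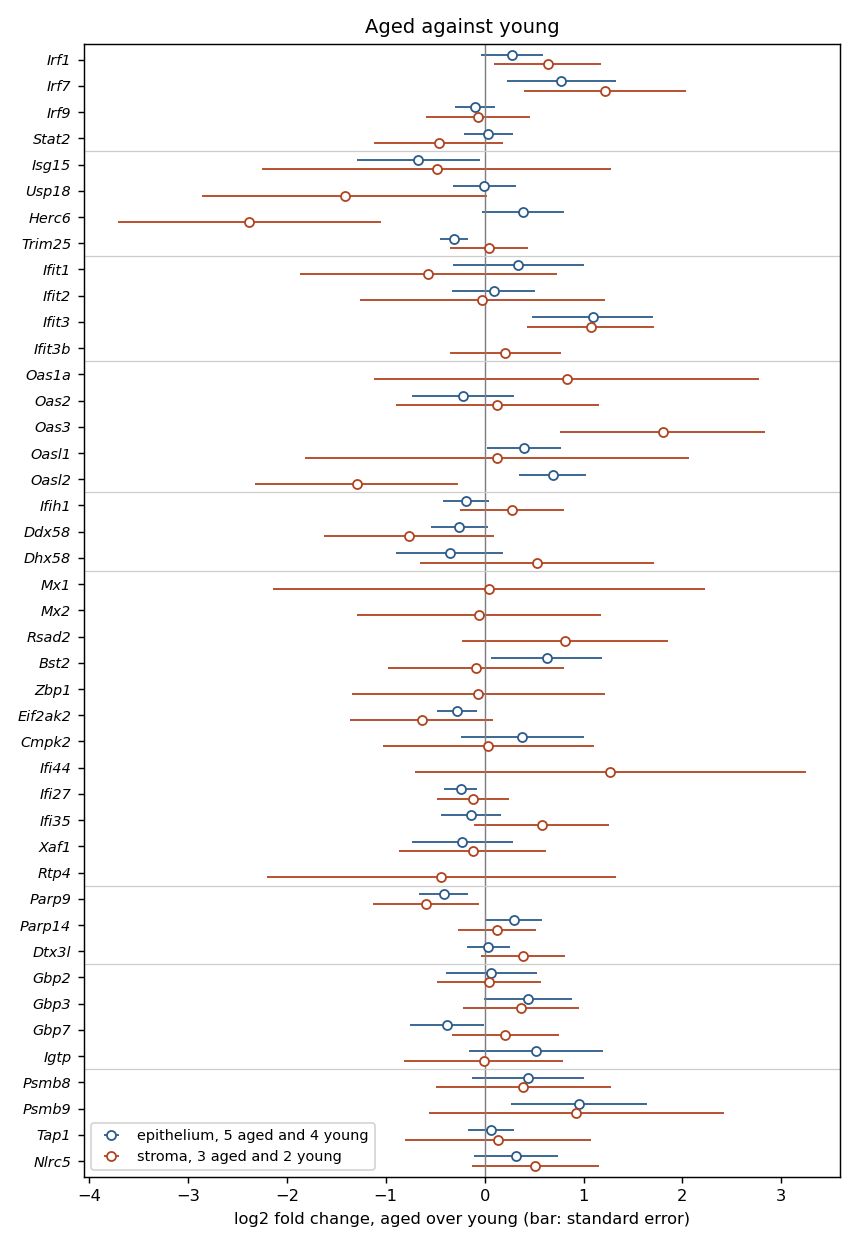
Log2 fold change of aged over young (x axis) for each member in epithelium (blue, 34 members) and in stroma (orange, 43 members), with bars of 1 standard error; all points are open because no member passed the adjusted p threshold. The stromal bars are the longer ones, and the largest stromal estimates are those of Herc6 at -2.38 and Oas3 at 1.80.

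In stroma, 3 aged against 2 young mice, 0 of the 43 members passed, against 0.0% of 21323 genes, and none had an unadjusted p under 0.05 by edgeR or DESeq2. The median log2 fold change was 0.05 over the members and -0.01 over all genes tested. The standard errors of the members ran from 0.36 for Ifi27 to 2.18 for Mx1, so that changes of moderate size were not detectable with 5 samples. In simulated counts for this comparison, 0 of 66 genes changed by a log2 fold of 1 were recovered, and 34 of 65 changed by 3. The genes changed were drawn only from those above a minimum expected mean count. Keratinocyte markers, which are not of this layer, summed to 49.3, 435 and 242 normalized counts in O1, O2 and O3 and to 73.5 and 46.1 in Y1 and Y3, and their part in the members' levels was not tested. Irf1 and Irf7 were higher in all 3 aged than in both young samples (6.42% of all genes did so), and Herc6 and Parp9 were lower in all 3 (14.1% of all genes).

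Herc6 (chromosome 6, 57581000 to 57664632), which shares 12.5% of its 50-base stretches with other genes, had the smallest p in stroma. Its normalized counts were 0.233 in O1, 2.47 in O2 and 0.0383 in O3 against 6.35 in Y1 and 3.27 in Y3, on 4, 60 and 1 counts against 123 and 83. The log2 fold change was -2.38 ± 1.33 (unadjusted p = 0.104, adjusted p = 0.99996, edgeR), and -5.21 without O2. Oas3 was at 5.31, 0.616 and 6.01 in the aged and 1.19 and 1.06 in the young, with O2 below both young samples (1.80 ± 1.04, unadjusted p = 0.113). Ifit3 was at 4.26, 6.61 and 18.2 against 4.80 and 4.41. Its estimate of 1.07 ± 0.64 (unadjusted p = 0.127, edgeR) was 0.21 without O3. Irf7 (chromosome 7, 141262706 to 141266481), the factor that amplifies type I interferon production, was at 3.73, 3.37 and 4.36 in the aged and 0.774 and 2.48 in the young (1.22 ± 0.82, unadjusted p = 0.169, edgeR); the estimate was 0.60 without Y1 and 2.26 without Y3. Oasl2 was at 0.175, 2.88 and 10.52 against 13.9 and 8.51, so that O3 lay between the young samples (-1.29 ± 1.03, unadjusted p = 0.236, edgeR). Its estimate was -0.73 without O1 and -2.86 without O3.

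**Figure D4:**
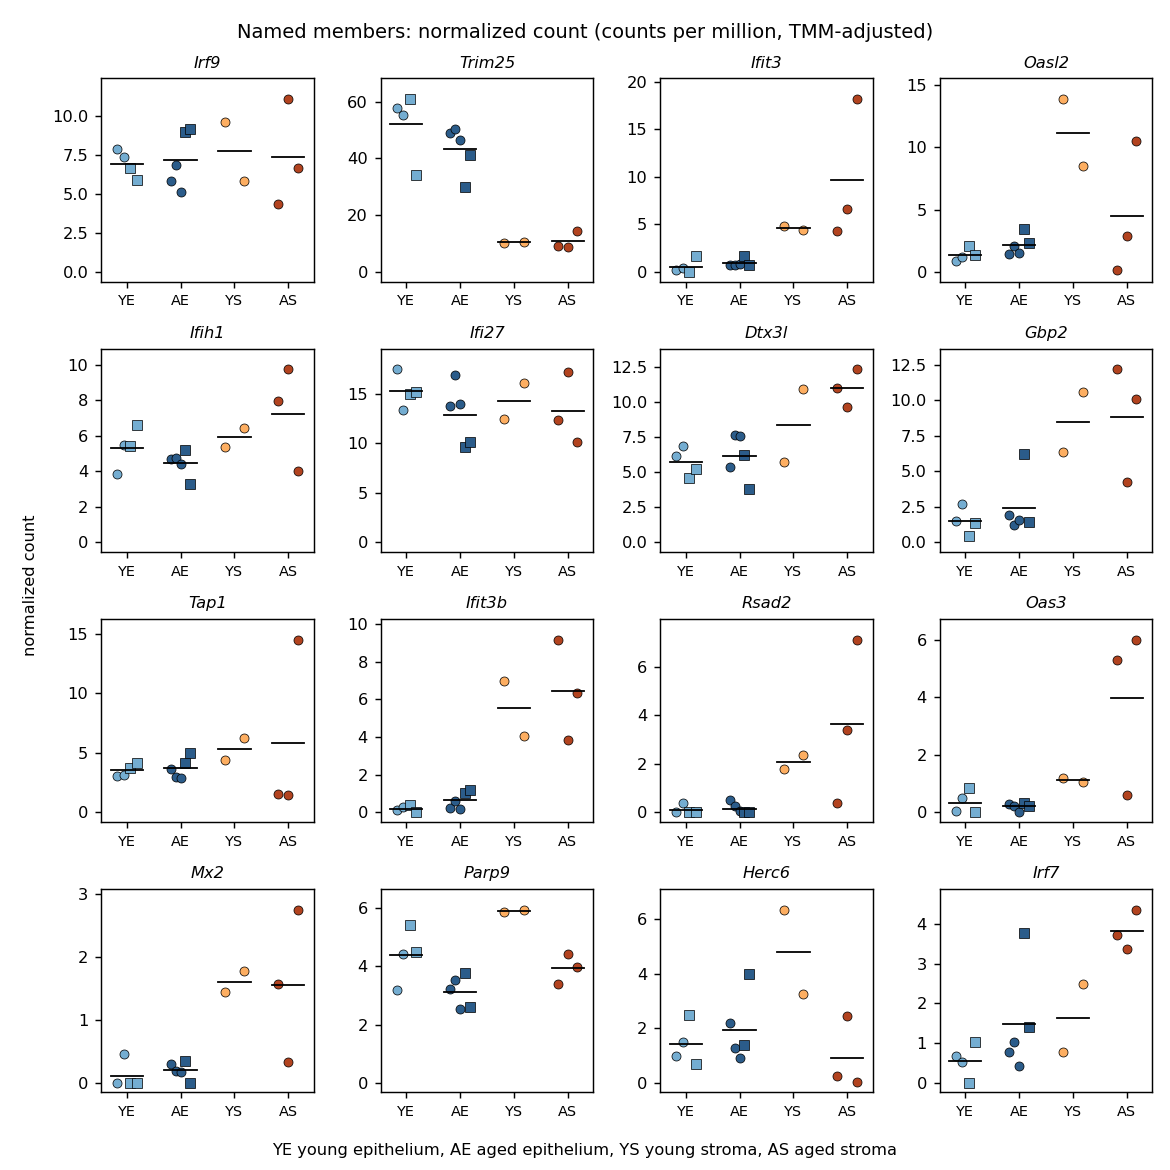
Normalized counts (y axis, each panel on its own scale) of the 16 members described sample by sample, in young epithelium (YE), aged epithelium (AE), young stroma (YS) and aged stroma (AS); circles are mice with numbered codes, squares mice with lettered codes, and lines are group means. Trim25 is high in both epithelial groups, Ifit3b, Rsad2 and Mx2 are near 0 there, and within a layer the aged and young points overlap in most panels.

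The difference of the age effects between the layers was tested in 10 samples, the 5 epithelial and 5 stromal ones of numbered mice. No member passed (0 of 43, against 0.0% of 22771 genes), with 0 at an unadjusted p under 0.05 by edgeR and by DESeq2, and 1 under 0.05 with mouse as a block. The estimates with the smallest p were those of Herc6 (2.61 ± 1.61, unadjusted p = 0.134), Oasl2 (1.997 ± 1.396, unadjusted p = 0.180) and Oas3 (-2.39 ± 1.80, unadjusted p = 0.210, edgeR), where a positive value means a higher aged over young ratio in epithelium. The standard errors ran from 0.33 for Trim25 to 2.32 for Mx1.

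A score per sample was taken as the mean over 41 members of log2 CPM (TMM, prior count of 2). In aged epithelium it was 0.53 in O1, 0.61 in O2, 0.34 in O3, 0.91 in OF5 and 0.57 in OM8, and in young epithelium 0.12 in Y1, 0.70 in Y3, 0.19 in YF5 and -0.09 in YM4. In stroma it was 0.82 in O1, 1.61 in O2, 2.09 in O3, 1.78 in Y1 and 1.90 in Y3. The 4 stromal samples other than O1 were above all 9 epithelial samples, and O1 stroma lay below OF5 epithelium. Means were 0.59 ± 0.20 (SD, n = 5) in aged and 0.23 ± 0.34 (SD, n = 4) in young epithelium, and 1.51 ± 0.64 (SD, n = 3) in aged and 1.84 ± 0.09 (SD, n = 2) in young stroma. The aged minus young differences of 0.36 in epithelium and -0.33 in stroma had opposite signs, and the age groups overlapped in both layers.

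The score of epithelium was below that of stroma by 1.21. Only 7 members had at least 10 counts in each of the 14 samples, and in a fit restricted to such genes 3 of them were lower in epithelium and Trim25 was higher, against 33.8% and 30.5% of 6711 genes. In that fit 5 of the 7 log2 fold changes were negative, with a median of -0.40, and Trim25 was at 1.84. Over these 7 members, from which the count minimum takes out members because they are low in 1 layer, the difference in score was 0.19 ± 0.19 (pooled SD), and that of aged and young epithelium was -0.20 in place of 0.36. This score kept the scaling of the fit over 16791 genes, not that of the restricted fit. In the fit over 16791 genes Trim25 was at 2.15, and the others ran from -0.71 for Dtx3l to 0.47 for Eif2ak2. By role, the scores of the PARP9-DTX3L group and of the GTPases in stroma lay entirely above those in epithelium (2.83 to 3.25 against 1.91 to 2.56, and 2.27 to 2.86 against -0.42 to 1.88), as did those of the signalling factors (1.98 to 2.66 against 0.84 to 1.96), the IFIT proteins (0.88 to 2.53 against -1.50 to 0.70) and the OAS family (0.15 to 0.96 against -1.67 to 0.08). The other roles overlapped. The RIG-I family ran from 1.24 to 1.79 in stroma and from 0.54 to 1.37 in epithelium. The other antiviral effectors ran from 0.22 to 1.97 and from -1.11 to 0.33. The ISG15 group ran from -0.37 to 2.11 in stroma and from 1.29 to 1.87 in epithelium, and the antigen processing group from -0.14 to 3.71 and from -0.54 to 1.82. The spread within stroma was wider than the whole epithelial range in the ISG15 group, the antigen processing group and the other antiviral effectors. Such ranges were not taken for sets of other genes.

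**Figure D5:**
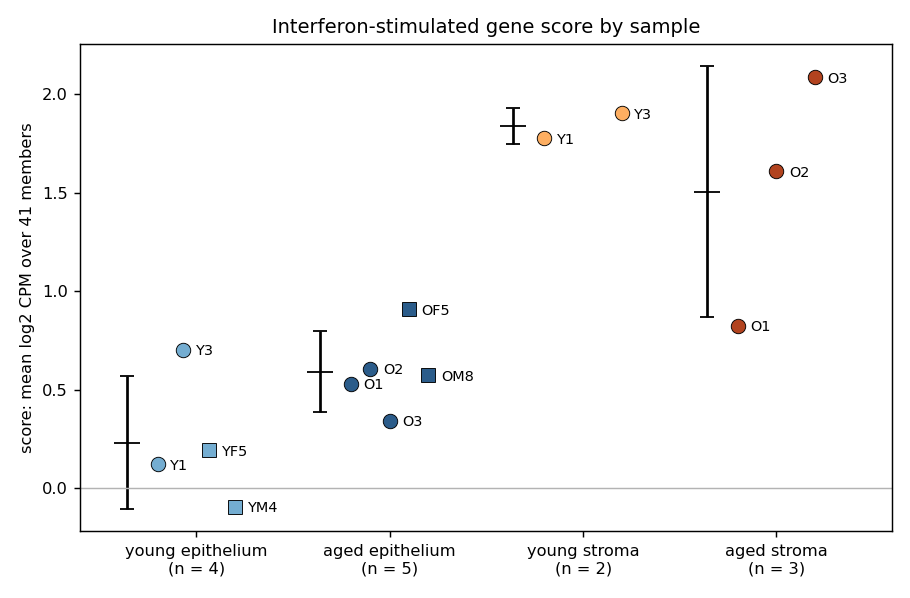
Score of each sample (y axis, mean log2 CPM over 41 members) in the 4 groups; circles are mice with numbered codes, squares mice with lettered codes, and the bar to the left of each group is its mean with 1 SD. Stromal scores lie between 0.82 and 2.09 and epithelial scores between -0.09 and 0.91, and the aged and young points overlap in each layer.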

How the data were processed

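Bulk RNA-Seq was analysed in 14 samples of 9 mice, grouped by layer and age from the sample labels. The authors deposited whole-number counts of reads per gene, not normalized; per the methods of the study, reads were aligned to GRCm38.p6 with Rsubread and counted with featureCounts, and the labels name bcl2fastq. The annotation release and the settings for strand and for reads matching several genes are not given in the sources used here. Libraries were enriched for mRNA with oligo(dT), yet 17.0% to 80.9% of counts lay in ribosomal RNA and repeat genes.

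The tests were run on the counts in R 4.3.3 with edgeR 4.0.16 (TMM, filterByExpr with a minimum count of 10, quasi-likelihood fit with robust estimation), with Benjamini-Hochberg adjustment over all genes tested and a threshold of 0.05. Epithelium and stroma were compared over 14 samples, age within the 9 epithelial samples (covariate: numbered or lettered code) and within the 5 stromal samples, and their interaction in 10 samples. Standard errors are the log2 fold change over the square root of F. Where the same mouse gave both layers, the shared mouse code pairs the samples; deviations from group means correlated at 0.0390 to 0.111 between the layers of a mouse over 22771 genes. Replicates are separate mice; no 2 samples of a group agreed within counting noise. The authors' method, DESeq2 (1.42.0), was an alternative, with the others in the closing section.

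The members, their role groups and the gene lists were chosen with earlier results of these data known. Members given sample by sample were the most abundant of each role, up to 5 per direction with the largest fold change among those called, and the 5 with the smallest p in each age comparison; others are summarised. Gene positions are from GENCODE M21. Of the listed names, 2 were matched through RefSeq synonyms (Sting1 and Cgas). A gene of the pathway lists is not reported here. The procedure was tested on simulated counts with genes changed by known folds. The changed genes were drawn only from those above a minimum expected mean count, which some members, such as Psmb9 in epithelium, did not reach. The recovery does not describe such members. At a log2 fold of 3 it recovered 67 of 67 between the layers and 67 of 67 for age in epithelium. It recovered 34 of 65 for age in stroma and 31 of 67 for the interaction. At a log2 fold of 1 the 4 comparisons gave 29, 43, 0 and 0 of 66. False calls numbered 3, 17, 3 and 4 in the same order. P-values reflect counting error and variation among mice.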

Additional observations from a re-analysis of the deposited data

Results flagged for a closer look

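Samples far from the rest of their group were looked for among the 16 members given by sample and the scores, in aged and young epithelium; groups of 3 or fewer were not examined. Of 52 groups of values 6 held such a sample by Dixon's criterion, and the cause was not tested. Chance gives about 1 in 20, but only for independent values without ties. Mx2 was tied at 0 counts in the other young samples, and the scores are built from members. No excess over chance is therefore read from these groups. On the scale of log2(normalized count + 0.5), Trim25 in YM4 was 5.12 against 5.80 to 5.94 in the other young samples. OF5 was the high sample of aged epithelium for Ifit3 (1.15 against 0.27 to 0.45) and Gbp2 (2.74 against 0.75 to 1.26), and its score for the PARP9-DTX3L group was 2.56 against 2.05 to 2.12. Y3 was the high sample of young epithelium for Rsad2 (-0.16 against -1.0 to -0.90) and Mx2 (-0.062 against -1.0 in each of the others), where the others had at most 1 count. OF5 and YM4 are among the shallow samples with lettered codes, in which 1 count equals 0.345 and 0.346 normalized counts.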

How the results depend on the processing

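The members called between the layers were recounted under 23 alternatives. The number lower in epithelium (25) stayed within 1.5 times in 22 of them and was 3 of the 7 members left when at least 10 counts were required in every sample; leaving out 1 sample gave 23 to 27. With the replicate block (mouse) it was 18, and of the 26 calls in either direction 25 were tested there and 6 lost. The number higher (1) was 2 without a filter, and 2 without both O1 and O3 stroma, an alternative chosen after seeing the data; leaving out 1 sample gave 1 to 2, with Oasl1 added without O1 stroma. Of the 26 calls, 20 held in all 14 fits without 1 sample, Mx2 held in the 13 that tested it, and 5 were lost in at least 1. For age in epithelium, age in stroma and the interaction, the number of members called was 0 in all 17, 10 and 16 alternatives, the replicate block included, and 0 to 0 without 1 sample. In 258 refits the layer differences of Trim25, Ifit3, Ifit3b, Rsad2, Oas3 and Mx2 changed neither direction nor side of the threshold. The same held for the 5 age estimates given for each layer. Other members lost or gained a layer call, and the text above gives part of these changes. Dhx58 (adjusted p = 0.156) and Ifi35 (0.131) also lost theirs without a filter, and Ifi35 with age as a covariate (0.0563, edgeR). In only the 5 mice with both layers, without a block, Ifi35 (0.101) and Ifit2 (0.0943) lost theirs (edgeR). Parp9 (adjusted p = 0.0126) and Ifih1 (0.00495) gained a call under the minimum of 10 counts (edgeR). Over those 7 members, Trim25 among them, the score difference of epithelium and stroma (-1.21) was 0.19. That of aged and young epithelium (0.36) was -0.20. The other scalings left both differences within 1 SD. Leaving out ribosomal RNA, repeat and mitochondrial genes moved the median of all genes in the interaction from 0.01 to -0.11.

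Depth limits the epithelial values: in the lettered mice 3 counts equal 0.707 to 1.25 normalized counts, and 9 members were not tested for age there. Stroma has 3 aged and 2 young samples, and the age estimates there have wider standard errors than in epithelium.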
